A study of Mus musculus with 6 samples.

Results

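The genes described here are 30 markers of the brain vasculature, 20 of endothelial cells and 10 of mural cells, the pericytes and smooth muscle cells that wrap the vessel wall. They were taken by name from 55487 genes counted in the cerebellum, and 29 of them passed the filter on low counts. The knockout mice (KO) were homozygous for the Galnt17 (Wbscr17) knockout allele Galnt17tm1.1(KOMP)Vlcg. The allele came from the KOMP repository on C57BL/6J, where no homozygotes were born live, and was bred to B6C3 animals, F1 hybrids of C57BL/6J and C3H/He, which gave live homozygotes. The control mice (WT) were wild-type B6C3. There were 3 libraries in each group, each from the cerebellum of 1 male at postnatal day 14. The sources used here do not say whether KO and WT animals were littermates, and they name no Cre driver that would limit the knockout to a cell type.

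Vessels of the brain are lined by endothelial cells joined by tight junctions, which with selective transporters form the blood-brain barrier. VEGF receptors and the angiopoietin receptor system steer vessel growth and stability, and PDGF-B from endothelium recruits pericytes through its receptor on mural cells. In the mouse cerebellum this network grows during the first postnatal weeks, together with the granule cell layer. Galnt17 encodes a member of the enzyme family that starts mucin-type O-glycosylation.

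Reads counted in genes totalled 20049223 to 29840046 in the KO libraries and 17111611 to 24120704 in the WT libraries. Unmapped reads were 13.8% to 17.2% in KO and 6.52% to 10% in WT. Multimapping reads were 3.72% to 3.90% in KO and 4.09% to 4.29% in WT, and ambiguous reads 3.95% to 4.07% in KO and 4.35% to 4.44% in WT. None of these 3 shares overlapped between the groups, and their part in the results was not tested. Galnt17 had 72, 80 and 63 counts in the KO replicates, in order, against 1119, 729 and 963 counts in the WT replicates. Each KO library was far below each WT library, as the labels have it. Of all tested genes, 143 were higher and 159 lower in KO at an adjusted p below 0.05 (edgeR's quasi-likelihood test, Benjamini-Hochberg adjusted over 18237 genes), 0.784% and 0.872% of those tested and 1.66% together. Levels below are CPM, read counts scaled to each library's TMM-adjusted total, and a level set beside that of another gene is CPM per kilobase of annotated exon. In whole tissue, fewer cells of a type and less RNA per cell cannot be told apart.

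The defining markers Cldn5, Pecam1 and Cdh5 of endothelium and Pdgfrb of mural cells were well above 0 in every library. None of the 29 tested vascular genes passed this threshold, 0 of 20 endothelial and 0 of 9 mural genes, beside 1.66% of all genes. At an unadjusted p under 0.05 there were 5 of the 29, against 17.6% of all tested genes. Of the 5, Tie1, Sox17 and Egfl7 were higher in KO (8.57% of all tested genes were) and Mfsd2a and Rgs5 lower (8.99%). The KO and WT libraries did not overlap for 6 of the 29, against 23.7% of all tested genes. They were those 5 and Kcnj8, which was higher in KO. Of the 6, 4 were higher and 2 lower, against 11.5% and 12.2% of all tested genes. DESeq2 called 1 member, Rgs5, lower in KO, as did edgeR's exact test, and limma-voom called 0. These tools called 3.38%, 4.92% and 1.71% of all genes, so 1 of 29 is near or below the share over all genes. The median log2 fold change, KO over WT, was 0.06 over the endothelial and 0.07 over the mural genes, beside -0.01 over all tested genes. The 29 values ran between -0.34 (Rgs5) and 0.32 (Sox17). The 95% interval of the fold change lay within 1.5-fold in either direction for 26 of the 29, beside 66.5% of all tested genes, and within 2-fold for all 29. Sox17, Vwf and Myh11 had upper bounds beyond 1.5-fold (1.51, 1.52 and 1.69-fold).

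**Figure D1:**
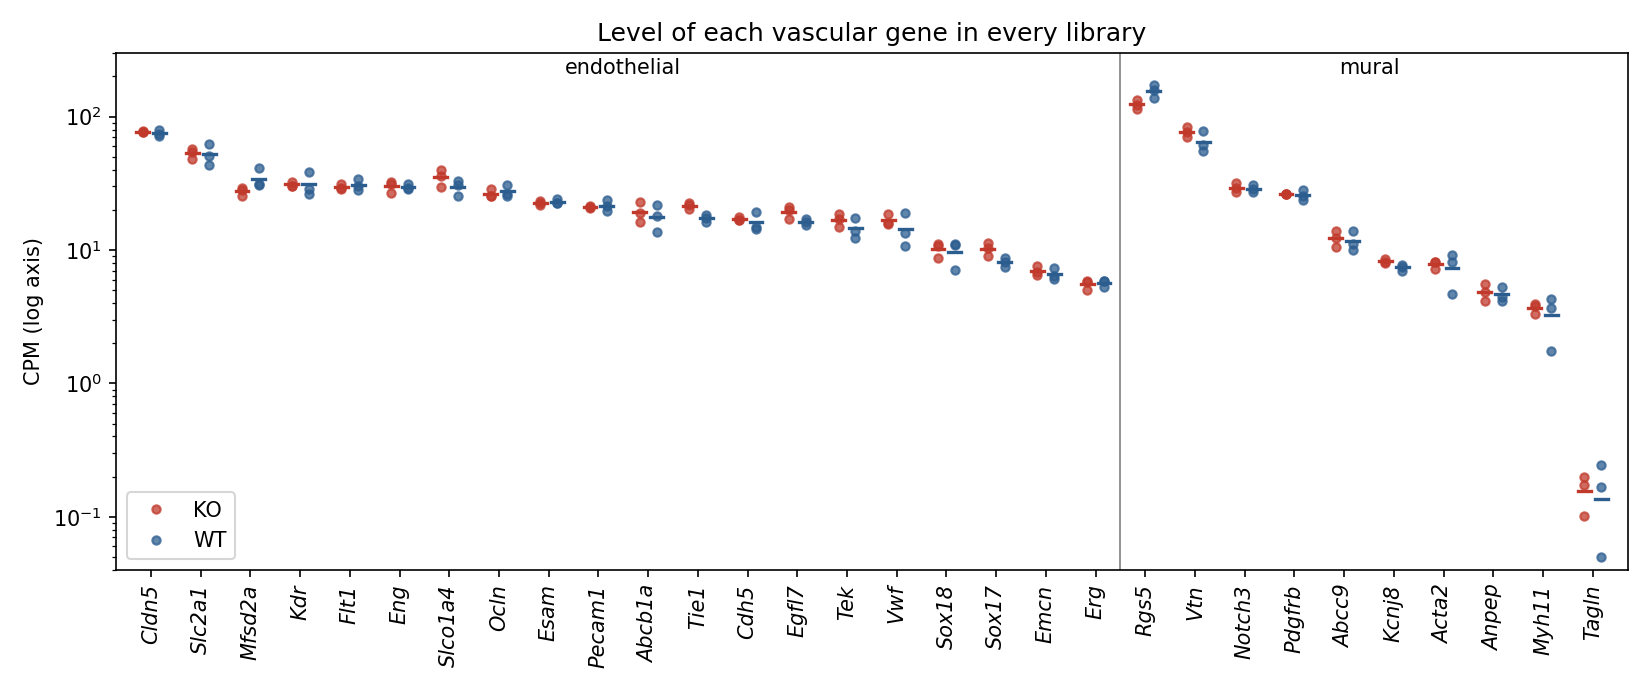
CPM on a log axis for each of the 30 genes in every library, with a horizontal line at each group mean; KO is left of WT, and the WT replicate with 0 Tagln counts is drawn at 0.05. The groups overlap for most genes, and Tagln lies far below the rest.

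Per kilobase of exon, Cldn5 stood highest in both groups, with a mean of 54.4 CPM per kilobase in KO and 52.9 in WT. Cldn5 encodes claudin-5, the main claudin of the endothelial tight junction. Vtn and Rgs5 followed with means of 37.9 and 27.2 CPM per kilobase in KO and 32.0 and 34.4 in WT. Their order was Vtn above Rgs5 in each KO library, and Rgs5 above Vtn in WT replicates 1 and 2, while in WT replicate 3 they were close to each other. Slc2a1 and Mfsd2a came next, at 15.2 and 12.3 CPM per kilobase in KO and 14.9 and 15.3 in WT. The transcription factor gene Erg, the sialomucin gene Emcn, Vwf and Myh11 were among the 6 lowest of the tested genes, at 1.6, 1.29, 1.04 and 0.483 CPM per kilobase in KO and 1.64, 1.22, 0.898 and 0.429 in WT.

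Upstream sequence is shown for 1 gene of each kind, the junction gene Cldn5, the pericyte gene Rgs5 and the smooth muscle gene Acta2, because the rule used no sequence and smooth muscle genes are known for CArG boxes, the binding motif of serum response factor. Each is the 250 bases before the start site from RefSeq (GRCm38.p6), and capitals mark motif matches.
Acta2, chr19:34255374-34255623, minus strand: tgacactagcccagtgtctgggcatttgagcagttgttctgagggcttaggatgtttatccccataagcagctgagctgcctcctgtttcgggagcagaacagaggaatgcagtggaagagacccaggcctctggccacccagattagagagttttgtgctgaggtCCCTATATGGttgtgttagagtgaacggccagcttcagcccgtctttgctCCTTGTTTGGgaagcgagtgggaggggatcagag
Rgs5, chr1:169655251-169655500, plus strand: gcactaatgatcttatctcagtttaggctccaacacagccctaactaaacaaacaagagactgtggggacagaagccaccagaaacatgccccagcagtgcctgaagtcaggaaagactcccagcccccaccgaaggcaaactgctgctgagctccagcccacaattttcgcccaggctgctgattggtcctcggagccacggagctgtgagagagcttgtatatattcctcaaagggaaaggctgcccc
Cldn5, chr16:18776597-18776846, plus strand: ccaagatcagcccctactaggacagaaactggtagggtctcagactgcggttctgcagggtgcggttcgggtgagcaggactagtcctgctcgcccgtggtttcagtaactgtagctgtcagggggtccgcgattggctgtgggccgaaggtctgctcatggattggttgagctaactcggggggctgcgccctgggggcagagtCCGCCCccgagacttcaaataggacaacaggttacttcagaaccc

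Acta2 held 2 CArG boxes, CCCTATATGG and CCTTGTTTGG, beginning 84 and 34 bases before the start, where a box was counted if at least 5 of its 6 inner bases were A or T. Of 32851 promoter windows of this length, 8.59% held a CArG box. Promoters were matched for 21 of the 30 genes, 14 endothelial genes with 19 windows and 7 mural genes with 7 windows. The ETS-type motif AGGAAG, on either strand, was in 9 of the 19 endothelial windows, in 0 of the 7 mural windows and in 29.5% of all windows. It was found at Abcb1a, Egfl7, Emcn, Eng, Erg, Flt1, Slco1a4 and Tie1. The GC box GGGCGG was in 8 endothelial and 3 mural windows and in 32.7% of all windows. TATAAA was in 2 endothelial windows, 1 mural window and 12.4% of all windows. The CArG box was in 5 of the endothelial windows and, among the mural windows, only in that of Acta2. The smooth muscle genes Tagln and Myh11 and the mural gene Pdgfrb had no matched promoter, so they were not searched. Windows of 1 gene can overlap, and a match is only a match of letters.

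Endothelial identity and junction genes differed little between the groups. Cldn5 was at 77.0, 76.5 and 77.6 CPM in the KO replicates, in order, and at 71.2, 73.8 and 79.6 CPM in the WT replicates. The KO values lay inside the WT range, and the log2 fold change was 0.04 (95% interval -0.08 to 0.17, adjusted p = 0.733, edgeR). Pecam1, which encodes the adhesion molecule CD31, was at 21.3, 20.5 and 21 CPM in KO and 21.2, 19.6 and 23.7 CPM in WT (log2 fold change -0.04, interval -0.23 to 0.15). Cdh5, the gene of VE-cadherin at endothelial adherens junctions, was at 16.8, 16.9 and 17.7 CPM in KO and 14.3, 15 and 19.2 CPM in WT (log2 fold change 0.08, interval -0.18 to 0.33). For both genes the KO libraries again fell within the span of the WT libraries. The tight junction gene Ocln, the adhesion gene Esam and Emcn had log2 fold changes of -0.06, -0.04 and 0.08, and the groups overlapped for each. Vwf, which encodes the clotting factor stored in endothelium, was at 15.8, 16.0 and 18.5 CPM in KO and 10.8, 13.4 and 19.1 CPM in WT, a spread among WT animals wider than the difference of the means.

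Of the receptors of vessel growth, Tie1 had the smallest p, and none passed. Flt1, the gene of the VEGF receptor that acts largely as a decoy, was at 28.8, 29.4 and 31.3 CPM in KO and 30.4, 28.2 and 33.9 CPM in WT (log2 fold change -0.05, interval -0.23 to 0.13). Kdr, which encodes the main signalling VEGF receptor, averaged 31.0 ± 1.29 CPM in KO and 31.1 ± 6.50 CPM in WT (SD, n = 3 each). Tie1, the gene of an orphan receptor that partners the angiopoietin receptor, was at 20.2, 22.7 and 21.7 CPM in KO and 17.4, 16.1 and 18.4 CPM in WT. The groups did not overlap for Tie1, KO being higher, with a log2 fold change of 0.31 (SE 0.09) and an adjusted p of 0.109 in edgeR. Tek, the gene of the angiopoietin receptor TIE2 itself, was at 15, 18.5 and 17.2 CPM in KO and 14.0, 12.3 and 17.3 CPM in WT (log2 fold change 0.21, adjusted p = 0.428, edgeR), and its groups overlapped. Eng, which encodes the TGF-beta co-receptor endoglin, had a log2 fold change of 0.01 (interval -0.17 to 0.20).

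The other endothelial genes that were higher in each KO library were Sox17 and Egfl7, and neither passed. Sox17, a transcription factor gene of arterial endothelium, was at 9.05, 10.3 and 11.2 CPM in KO and 8.74, 7.51 and 8.07 CPM in WT (log2 fold change 0.32, SE 0.12, adjusted p = 0.217, edgeR). Egfl7, a secreted endothelial matrix protein gene that hosts a microRNA, was at 17.2, 20.1 and 21 CPM in KO and 15.4, 16.1 and 17 CPM in WT (log2 fold change 0.26, SE 0.10, adjusted p = 0.213, edgeR). The other transcription factor genes among the members had smaller values. Sox18 had a log2 fold change of 0.09 and Erg one of -0.03, with overlapping groups. Egfl7 shares 459 exon bases with other annotated genes, some on its own strand, and Sox17 804, so their counts may lack reads. The 2 columns counted by strand together held 1 and 1.02 times their counts without strand, against 1.07 over all genes. Loss to genes on the same strand would not show there. Slc2a1, Abcb1a and Notch3 also share exon bases, and had higher values of 1.16, 1.12 and 1.11.

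The barrier transporters did not move as a set. Mfsd2a, the transporter of lysophosphatidylcholine that limits transcytosis at the barrier, was at 29.2, 28.1 and 25.5 CPM in KO and 31.3, 30.5 and 41.2 CPM in WT. The groups did not overlap, KO being lower, with a log2 fold change of -0.31 (SE 0.11, adjusted p = 0.190, edgeR). WT replicate 3 was the highest, and without it the log2 fold change was -0.16. Slc2a1, which encodes the glucose transporter GLUT1, was at 48.4, 57.0 and 54.6 CPM in KO and 50.6, 43.4 and 62.3 CPM in WT (log2 fold change 0.03, interval -0.22 to 0.28). The efflux pump gene Abcb1a was at 16.3, 18.9 and 23.1 CPM in KO and 17.9, 13.6 and 21.6 CPM in WT (log2 fold change 0.12, interval -0.25 to 0.49). For both of these the groups overlapped widely. The organic anion transporter gene Slco1a4 averaged 35.2 ± 5.18 CPM in KO and 29.6 ± 3.92 CPM in WT (SD, n = 3 each), with a log2 fold change of 0.24 and an adjusted p of 0.332 in edgeR. Abcb1a and Slco1a4 have close paralogues, so reads that match a copy may be missing from their counts.

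**Figure D2:**
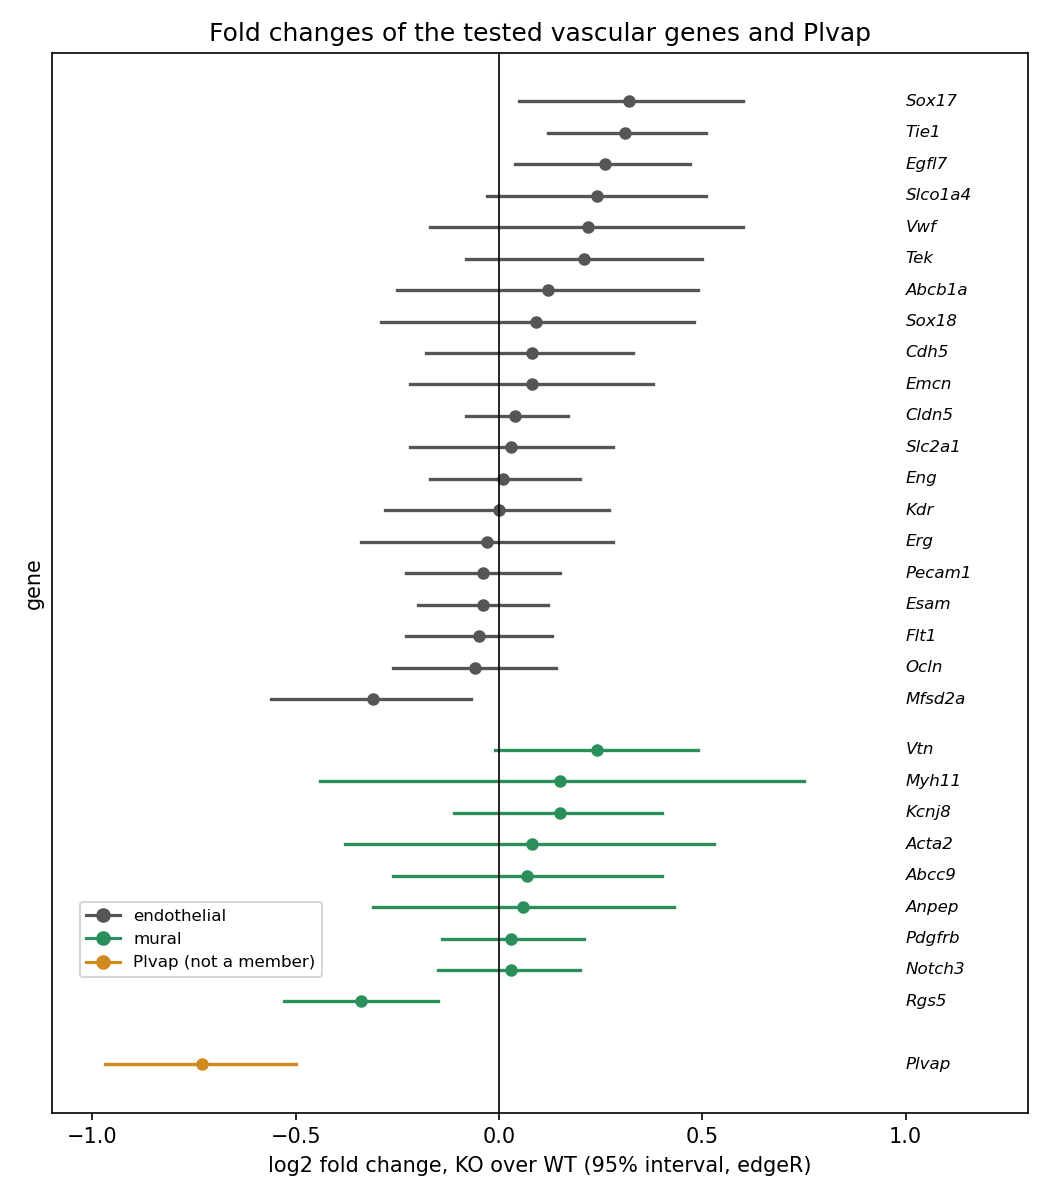
Log2 fold changes, KO over WT, of the 29 tested vascular genes and of Plvap, with 95% intervals from edgeR; grey is endothelial, green mural and orange Plvap. Sox17, Tie1 and Egfl7 lie above 0 and Mfsd2a and Rgs5 below 0 with intervals that leave out 0, and of the genes drawn only Plvap passed after adjustment.

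Of the pericyte genes, Rgs5 had the smallest p. Rgs5, which encodes a regulator of G-protein signalling abundant in brain pericytes, was at 134, 123 and 114 CPM in the KO replicates, in order, and at 159, 138 and 173 CPM in the WT replicates. All KO values were under all WT values. The log2 fold change was -0.34 (SE 0.09, 95% interval -0.53 to -0.15), 1.27-fold lower in KO, with an adjusted p of 0.0869 in edgeR's quasi-likelihood test. The adjusted p was 0.0124 in edgeR's exact test, 0.00787 with DESeq2 and 0.0883 in limma-voom. It was 0.0487 without WT replicate 1, a fit in which 10.5% of all genes were called. The unadjusted p of Rgs5 there was 0.00502, against 0.00267 with all libraries (edgeR's quasi-likelihood test). Over all alternatives its adjusted p lay between 1.40e-05 and 0.999.

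Rgs5 was the only one of the 9 tested mural members below 0, while among the 25 tested genes of the further mural list 11 were. That list holds Cox4i2, a subunit gene of cytochrome c oxidase, at 3.22, 4.47 and 3.62 CPM in KO and 4.51, 4.28 and 5.30 CPM in WT (log2 fold change -0.32, adjusted p = 0.367, edgeR), and Higd1b and P2ry14, at log2 fold changes of -0.17 and -0.19. In the same list 14 genes were above 0, and the median was 0.04. Foxf2, Tbx18 and Casq2 were among those 14, at log2 fold changes of 0.16, 0.15 and 0.17. All these genes of the further list were named after their values were seen, and none passed. Vtn, the vitronectin gene, which brain pericytes express strongly, was at 70.5, 77.2 and 83.3 CPM in KO and 61.7, 54.9 and 78.1 CPM in WT (log2 fold change 0.24, interval -0.01 to 0.49, adjusted p = 0.294, edgeR), and passed without WT replicate 3 (log2 fold change 0.40, adjusted p = 0.0327). Pdgfrb, the gene of the PDGF receptor beta that defines mural cells, was at 26.5, 26.4 and 26.5 CPM in KO and 23.6, 25.6 and 28.3 CPM in WT (log2 fold change 0.03, interval -0.14 to 0.21). The KO libraries of Pdgfrb lay close together in the middle of the WT range. Notch3, the mural Notch receptor gene, was at 31.8, 29.1 and 27.1 CPM in KO and 28.8, 27.3 and 30.5 CPM in WT (log2 fold change 0.03, interval -0.15 to 0.20). Kcnj8 and Abcc9, neighbours on chromosome 6 that encode the pore and the sulphonylurea receptor of the vascular ATP-sensitive potassium channel, had log2 fold changes of 0.15 and 0.07. Kcnj8 was at 8.58, 7.95 and 8.09 CPM in KO and 7.74, 6.98 and 7.49 CPM in WT, without overlap, at an adjusted p of 0.534 (edgeR). The aminopeptidase N gene Anpep had a log2 fold change of 0.06.

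The ratio of Rgs5 to Vtn counts, which does not depend on library size, was 1.9, 1.6 and 1.37 in the KO replicates, in order, and 2.57, 2.51 and 2.22 in the WT replicates. Each KO ratio was below each WT ratio. This pair was chosen after the values of both genes had been seen, so the ratio is given as a description only.

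Of the smooth muscle genes, Acta2, which encodes smooth muscle actin, was at 7.17, 8.08 and 8.19 CPM in KO and 8.20, 4.69 and 9.14 CPM in WT (log2 fold change 0.08, interval -0.38 to 0.53). Myh11, the smooth muscle myosin heavy chain gene, was at 3.79, 3.31 and 3.92 CPM in KO and 3.69, 1.76 and 4.33 CPM in WT (log2 fold change 0.15, interval -0.44 to 0.75). For both genes WT replicate 2 was the lowest of the 6 libraries. The actin genes are near-identical over long stretches, so Acta2 counts may lack reads shared with its relatives.

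Tagln, the gene of the smooth muscle protein transgelin, was the member that failed the filter, with 3, 4 and 4 counts in KO and 4, 0 and 5 counts in WT. In the annotation, 1349 of its 1988 exon bases (chromosome 9, 45929619 to 45936058, minus strand, GRCm38) are shared with genes on the opposite strand, Pcsk7 among them, and reads that fall on more than 1 gene are left out of the column counted without strand. In the columns that take strand into account, Tagln had 517 counts over the 6 libraries under the first setting and 509 under the second. Under the second setting there were 107, 80 and 100 counts in KO and 106, 37 and 79 counts in WT. Summed over the libraries, the strand columns together held 51.3 times the counts of the column without strand, against 1.07 times over all genes. The highest such value among the other 29 members was 1.16, for Slc2a1. Because the libraries do not mark strand, the strand columns of Tagln can hold reads of Pcsk7, and no test was made on them. WT replicate 2, the shallowest library, was the lowest there too.

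**Figure D3:**
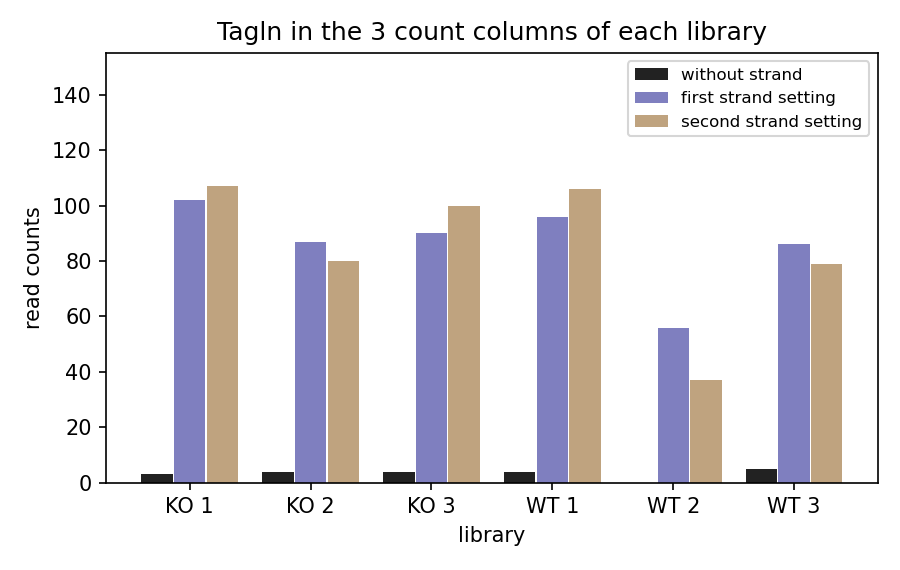
Read counts of Tagln in each library in the column counted without strand (black) and in the columns counted for the first and second strand settings (violet and tan). The column without strand holds 0 to 5 counts, while the strand columns hold 37 to 107.

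The vascular genes leaned to one side of their means in single animals of both groups. In WT replicate 1, 5 of the 20 endothelial genes and 4 of the 9 tested mural genes lay above their own mean over the 6 libraries. In WT replicate 2, 2 of the 20 endothelial genes and 0 of the 9 tested mural genes did, whereas in WT replicate 3, 14 and 7 did. Over all tested genes the shares were 51.5%, 49.6% and 49.7%. WT replicate 3 exceeded WT replicate 2 in 28 of the 29 genes, by a median of 0.26 on the log2 scale, while over all tested genes it did so in 49.8%, with a median of 0.00. In KO replicates 1, 2 and 3 the number of the 29 genes above their mean was 15, 18 and 23. The median SD of log2 CPM within a group was 0.11 in KO and 0.16 in WT over these genes, beside 0.07 and 0.12 over all tested genes above 1 CPM.

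**Figure D4:**
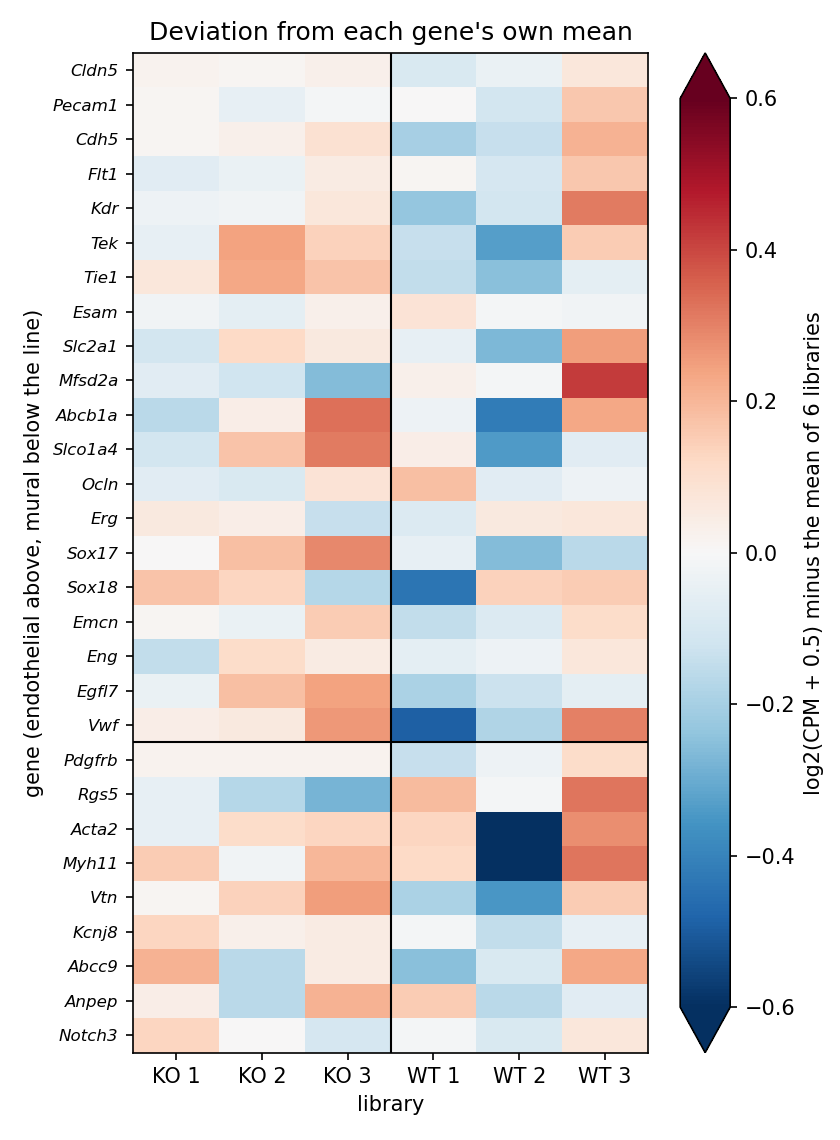
Log2(CPM + 0.5) of each tested vascular gene in each library minus its mean over the 6 libraries, red above and blue below the mean, KO left of WT, endothelial genes above the line and mural genes below it. Most genes are blue in WT replicate 2 and red in WT replicate 3, with Acta2 and Myh11 among the deepest blue in WT replicate 2.

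How far the whole list leaned above 0 depended on the animals used, most of all on those of WT. Of the 29 fold changes 21 were above 0, beside 48.5% of all tested genes. Without WT replicates 1, 2 and 3 in turn there were 17, 15 and 25 above 0. Without KO replicates 1, 2 and 3 in turn there were 20, 20 and 19. The endothelial median was 0.00, 0.02 and 0.18 without WT replicates 1, 2 and 3, and the mural median 0.15, -0.01 and 0.16. Summed over the 20 endothelial genes the level was 473, 504 and 517 CPM in KO and 464, 444 and 535 CPM in WT. The 10 mural genes summed to 301, 290 and 289 CPM in KO and 308, 274 and 350 CPM in WT. Both KO ranges lay inside the WT ranges. Rgs5 and Vtn, whose fold changes had opposite signs, made up most of the mural sum. Their means were 124 and 77.0 CPM in KO and 157 and 64.9 CPM in WT.

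The companion genes of the vascular pathways gave 1 call, Plvap. Of 146 genes in 8 lists, 142 were tested, 0 rose and 1 fell, beside 1.66% of all genes, and 17 of the 142 had an unadjusted p under 0.05, beside 17.6%. Plvap encodes the protein of the diaphragms that span fenestrae, and is known from leaky endothelium such as that of the choroid plexus rather than from barrier vessels. It was at 9.08, 8.51 and 8.84 CPM in the KO replicates, in order, and at 13.9, 13.8 and 16.2 CPM in the WT replicates. The groups did not overlap, KO being lower, with a log2 fold change of -0.73 (SE 0.11), 1.66-fold lower in KO, and an adjusted p of 0.00760 in edgeR. The call held in limma-voom, DESeq2 and the exact test, and without each library but KO replicate 2, where the adjusted p was 0.0682 with a log2 fold change of -0.71.

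Markers of the choroid plexus epithelium, summed, were also lower in each KO library than in each WT library. Of 11 such markers 7 fell and 0 rose, beside 0.872% and 0.784% of all tested genes, with a median log2 fold change of -2.19. Their summed level was 46.9, 277 and 500 CPM in KO and 1190, 2000 and 2140 CPM in WT. Except in KO replicate 1, most of the sum was Ttr, which did not pass (adjusted p = 0.154, edgeR). In 10 of the 11 each KO library was below each WT library, beside 12.2% of all tested genes. Otx2 was the exception (log2 fold change -0.06). None of the markers was at 0 in any library. Plvap was at 9.08, 8.51 and 8.84 CPM in the same KO replicates, in order. With the mean of these markers as a covariate, the log2 fold change of Plvap was -0.74 with a larger SE (0.23). Its unadjusted p was 0.0107 and its adjusted p 0.999 in edgeR's quasi-likelihood test. In that fit 0.0823% of all genes were called, against 1.66% without the covariate. The summed markers did not overlap between the groups, so the fit cannot tell them apart from genotype. The part of choroid plexus tissue in the Plvap result was not tested.

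**Figure D5:**
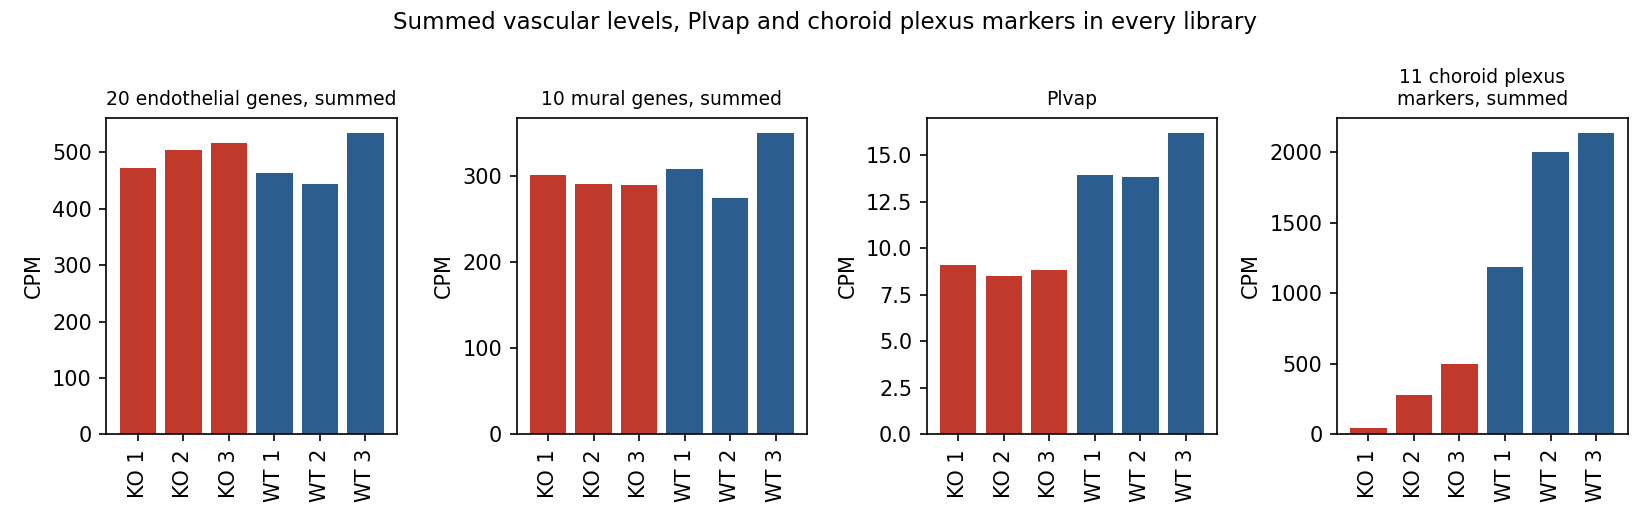
CPM in each library summed over the 20 endothelial genes and the 10 mural genes, for Plvap alone, and summed over 11 choroid plexus markers, KO left of WT. Plvap and the summed choroid plexus markers are lower in each KO library than in each WT library, while the vascular sums overlap. Except in KO replicate 1, most of the choroid plexus sum is Ttr.

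In edgeR's quasi-likelihood test the other pathway lists held 0 calls. The exact test called Cd34 higher and Fzd4 and Sncg lower beside Plvap, at 4.92% of all genes called, and DESeq2 called Fzd4 lower, at 3.38%. Among VEGF, angiopoietin and apelin genes 12 of 14 were tested and 9 of those were below 0, with a median log2 fold change of -0.15. The leading ones were the apelin ligand gene Apln, at 27.1 ± 2.03 CPM in KO and 33.0 ± 2.22 CPM in WT (adjusted p = 0.121), and the co-receptor gene Nrp2, at 16.5 ± 0.448 CPM in KO and 20.1 ± 1.51 CPM in WT (SD, n = 3 each, adjusted p = 0.133 in edgeR across all genes). Among 14 Wnt and norrin genes, which set up the barrier, the norrin receptor gene Fzd4 was at 13.9, 13.7 and 15.2 CPM in KO and 20.9, 16.5 and 19.7 CPM in WT (log2 fold change -0.42, SE 0.10, adjusted p = 0.0799, edgeR). Its adjusted p lay between 0.00475 and 0.999 over the alternatives, 3 of which called it (DESeq2, the exact test and no filter on low counts). The Wnt target gene Axin2 had a log2 fold change of -0.20 (adjusted p = 0.190, edgeR). Their list had a median of -0.03.

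Among 18 Notch, arterial and venous genes the median was 0.02, and those with the smallest p were the adhesion gene Vcam1 (log2 fold change -0.34, adjusted p = 0.185) and the Notch ligand gene Dll4 (-0.19, adjusted p = 0.269, edgeR). Over 26 further endothelial genes the median was 0.04. The sialomucin gene Cd34 was at 30.3, 30.9 and 32.0 CPM in KO and 27.2, 24.7 and 25 CPM in WT (log2 fold change 0.27, SE 0.07, adjusted p = 0.0889, edgeR), and Pglyrp1, which encodes a peptidoglycan recognition protein, had a log2 fold change of 0.47 (adjusted p = 0.108). Both had each KO library above each WT library. Cd34 was called under 3 alternatives (the exact test, no filter, and without WT replicate 1), with adjusted p between 0.0204 and 0.999 over all of them. Of 27 further mural genes 25 were tested, with a median of 0.04. Sncg, the gamma-synuclein gene, which neurons also express, was low, at 1.78, 1.29 and 1.29 CPM in KO and 2.19, 2.58 and 4.13 CPM in WT. Its log2 fold change was -1.01 (adjusted p = 0.106, edgeR), with WT replicate 3 the highest. The actin-binding gene Synpo2 had a log2 fold change of 0.48 (adjusted p = 0.172, edgeR).

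Of 21 further transport and junction genes, Plvap was the only one that passed, and the median was -0.04. The amino acid transporter subunit gene Slc3a2 and the thyroid hormone and organic anion carrier gene Slco1c1 had log2 fold changes of -0.12 and -0.15. Over 10 basement membrane genes the median was -0.02, with the nidogen genes Nid1 and Nid2 at -0.15 and -0.27. Over 16 genes of PDGF and TGF-beta signalling it was 0.00, with Pdgfb, the ligand gene for pericyte recruitment, at 0.14 and the receptor gene Acvrl1 at 0.19.

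Markers of other cells that share tissue with vessels were read beside these values. The 12 meningeal fibroblast markers summed to 304, 326 and 338 CPM in KO and 298, 282 and 305 CPM in WT, with 0 calls. The 10 microglia and macrophage markers summed to 109 to 118 CPM in KO and 108 to 131 CPM in WT, with 0 calls. Of 6 tested red blood cell genes 1 fell, Hba-a1 (log2 fold change -0.53), beside 0.872% of all tested genes. Its near-identical copy Hba-a2 had a log2 fold change of 0.67 (adjusted p = 0.252, edgeR), so reads may be shared out differently between them. The 7 red blood cell genes summed to 201 to 224 CPM in KO and 212 to 241 CPM in WT. Platelet markers, which bear on Vwf because megakaryocytes also make it, summed to 2.38 to 3.44 CPM in KO and 2.44 to 2.93 CPM in WT, and Ppbp was at 0 in KO replicate 1 and WT replicate 1. Astrocyte and Bergmann glia markers summed to 2550 to 2640 CPM in KO and 2380 to 2680 CPM in WT. Of the neuronal markers, those of Purkinje cells differed more. The 3 Purkinje cell markers summed to 3010 to 3090 CPM in KO and 2230 to 2600 CPM in WT, without overlap. Of the 3, 2 rose, Car8 and Pcp2 (log2 fold changes 0.40 and 0.35, adjusted p = 0.0371 and 0.0261, edgeR), beside 0.784% of all tested genes. The 3 granule cell markers summed to 2100 to 2210 CPM in KO and 1920 to 2230 CPM in WT, with 0 calls. The part of these cells in the values above was not tested.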

How the data were processed

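The authors deposited raw read counts for every gene, with 1 table for each of the 6 cerebellar libraries. Per the submitters' processing notes the authors used STAR 2.7.5a with mm10/GRCm38 and edgeR 3.12. The sources used here do not give the counting options. The column counted without strand was used, since the strand columns split evenly (49.9% to 50.0% in the first), and the 4 summary lines were left out of library sizes. Symbols and positions came from GENCODE M21 (GRCm38), which matched 99.5% of 55487 identifiers. Groups follow the strain label. Replicate numbers follow accession order. Libraries came from different animals, and no 2 were identical.

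The 18237 genes passing edgeR's default filter (minimum count 10, minimum total 15) were fitted with edgeR 4.0.16 in R 4.3.3 (TMM, two-sided quasi-likelihood F test, called at a Benjamini-Hochberg adjusted p under 0.05). SEs and 95% intervals were derived from the fold change and F statistic. They rest on the spread between animals. Alternatives used DESeq2 1.42.0, limma 3.58.1 (voom), edgeR's exact test, other scalings and filters, a per-library GC trend as an offset, a choroid plexus covariate and leaving out each library. The steps were tested on simulated data. No molecular identifiers are named, so reads may be PCR copies.

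The members and all lists were chosen with earlier results of these data known, so no set test was made. The naming rule took every member and gave statistics for those with an unadjusted p under 0.05 and 13 fixed genes. From the companion lists it took the genes called and otherwise the 2 with the smallest p. Other values are given as description.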

Additional observations from a re-analysis of the deposited data

How the results depend on the processing

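DESeq2, with 294 higher and 263 lower genes in all, called 1 mural gene lower (Rgs5) and 2 companion genes lower (Fzd4 and Plvap). The edgeR exact test, with 492 higher and 406 lower, called 1 mural gene lower (Rgs5), and 1 companion gene higher (Cd34) and 3 lower (Fzd4, Plvap and Sncg). With no filter on low counts, 803 genes were higher and 820 lower, 4.85% of 33485 genes. Of 30 members 4 were called, the endothelial genes Tie1 (higher) and Mfsd2a (lower) and the mural genes Vtn (higher) and Rgs5 (lower). Of 146 companion genes 3 were higher (Calcrl, Cd34 and Itm2a) and 5 lower (Apln, Fzd4, Plvap, Sncg and Vcam1). With the choroid plexus covariate 2 genes were higher and 13 lower, 0 of them companion genes. The endothelial median was 0.24 and its difference from the mural median 0.23, and Flt1 (0.07) and Notch3 (-0.18) changed sign. The markers behind this covariate, summed, did not overlap between the groups, so this fit cannot tell them apart from genotype. Other scalings, limma-voom, the stricter filter and the GC offset called 0 members.

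Leaving out 1 library at a time gave 28 to 959 higher and 53 to 962 lower genes, together 0.441% to 10.5% of all genes. Both counts and this share were highest without WT replicate 1. These fits gave 0 to 1 mural gene higher (Vtn, without WT replicate 3), 0 to 1 lower (Rgs5, without WT replicate 1) and 0 endothelial genes. They gave 0 to 2 companion genes higher and 0 to 5 lower, both highest without WT replicate 1. The endothelial median ran between 0.00 and 0.18. Among the fixed genes, those near 0 changed sign. The ranges were -0.03 to 0.29 for Abcb1a, -0.15 to 0.25 for Acta2, -0.01 to 0.23 for Cdh5 and -0.11 to 0.02 for Flt1. They were -0.04 to 0.08 for Notch3, -0.03 to 0.11 for Pdgfrb, -0.10 to 0.04 for Pecam1 and -0.08 to 0.18 for Slc2a1. Over all alternatives, Kdr, Ocln, Erg, Sox18, Eng, Myh11, Abcc9 and Anpep also changed sign. The causes were not tested. Rgs5 ran between -0.42 and -0.26, Mfsd2a between -0.39 and -0.16 and Plvap between -0.77 and -0.65. No paired analysis was possible because KO and WT titles carry different animal codes and no common numbering.

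With 3 animals per group the intervals of 26 of 29 members stay inside 1.5-fold. Tagln could not be tested at its counts.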
